A study of Homo sapiens with 12 samples.

Results

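The 10 genes described here form the adhesion and keratin programme of simple ductal epithelium: the adhesion genes CDH1, EPCAM and CLDN4, the keratins KRT7, KRT8, KRT18 and KRT19, and the regulators GRHL2, ESRP1 and OVOL2. They were chosen by name, as 10 of the 19974 protein-coding genes on chromosomes 1 to 22 and X, and every peak overlapping the RefSeq span of a gene (GRCh38) or the 5 kb on either side of it was assigned to that gene. Chromatin accessibility had been profiled by ATAC-seq in MIAPaCa2, an established human cell line from a pancreatic ductal adenocarcinoma. The 4 groups of 3 libraries were parental and resistant MIAPaCa2 cells, both untreated and treated with oxamate, which competitively inhibits lactate dehydrogenase A. The resistant cells had survived selection with the same compound. No group carried a further allele or agent. The resistant population is 1 selected line, and nothing states that replicates came from separate cultures, so the p-values measure the spread between these libraries, which may be technical. Each library is a peak list without read counts, so a value is the number of bases of a gene window covered by called peaks. In bulk nuclei, fewer cells with an open site and a less open site in every cell cannot be told apart.

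E-cadherin, the product of CDH1, holds neighbouring epithelial cells together at adherens junctions, EPCAM is a homophilic adhesion protein of simple epithelia, and claudin-4 is a tight junction protein that is abundant in pancreatic ductal tumours. Keratins 8 and 18 pair into the intermediate filaments of simple epithelia, and keratins 7 and 19 are added in ducts, where they serve as diagnostic markers. GRHL2 and OVOL2 are transcription factors that hold the epithelial state, in part by opposing ZEB1, and ESRP1 sets epithelial splicing. ZEB and SNAIL family repressors bind E-boxes in epithelial promoters, CDH1 among them.

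The libraries held 45748 to 62414 peaks that covered 13.8 to 33.7 Mb. Covered length differed by phenotype across the genome: the 6 parental lists covered 20.4 Mb ± 4.4 (SD, n = 6) and the 6 resistant lists 27.7 Mb ± 4.24 (SD, n = 6). The shortest peak was 67 to 87 bp in parental and 94 to 124 bp in resistant libraries, without overlap. A background pileup, the fragments stacked per position, was worked out from the fold and p columns. It was 0.748 to 1.32 in parental and 0.697 to 1.22 in resistant libraries, which overlapped. Relative depth was this pileup divided by the width of the shortest peak, with the shallowest library set to 1. It was 1.33 to 2.77 in parental and 1 to 1.85 in resistant libraries, and is not independent of that width. Covered length, shortest peak and relative depth differ by phenotype beside every comparison of resistant with parental cells given here. Their part in the results was not tested.

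CLDN4 held the largest presence difference of the 10 genes, at its transcription start. A merged region at chr7:73830885-73831225 (341 bp, overlapping the annotated start of CLDN4) was called in 3 of 3 resistant untreated and 3 of 3 resistant treated libraries, and in 0 of 6 parental libraries. The RefSeq promoter windows of CLDN4 and KRT8 are printed because the reference used held a window for only 2 of the 10 genes. Each runs from 250 bases before to 50 bases after the annotated start. For KRT8 this start lies inside the gene span, away from both of its ends, so the window need not be the main KRT8 promoter. Capitals mark matches to the 4 motifs searched on both strands: the E-box CAGGTG or CACCTG, the GC box GGGCGG or CCGCCC, the AP-1 pattern TGANTCA, and the grainyhead pattern of AAC and GTT around any 2 bases. The windows lie at chr7:73830746-73831045 on the plus strand and chr12:52926420-52926719 on the minus strand (GRCh38.p14, sequence from RefSeq).
CLDN4: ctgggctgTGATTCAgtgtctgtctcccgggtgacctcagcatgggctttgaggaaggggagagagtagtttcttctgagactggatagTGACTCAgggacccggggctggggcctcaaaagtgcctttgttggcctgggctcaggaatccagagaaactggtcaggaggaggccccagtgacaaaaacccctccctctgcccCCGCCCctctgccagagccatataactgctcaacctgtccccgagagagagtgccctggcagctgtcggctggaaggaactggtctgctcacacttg
KRT8: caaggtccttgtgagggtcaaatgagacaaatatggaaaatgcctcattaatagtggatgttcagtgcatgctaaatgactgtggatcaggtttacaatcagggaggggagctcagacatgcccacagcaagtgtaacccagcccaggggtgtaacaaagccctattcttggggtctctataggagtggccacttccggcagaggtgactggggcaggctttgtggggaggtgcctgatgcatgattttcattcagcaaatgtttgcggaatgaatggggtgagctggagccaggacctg

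The CLDN4 window held 2 AP-1 matches, TGATTCA and TGACTCA, and 1 GC box match, CCGCCC, and no matches overlapped. The GC box match at -47 to -42 from the start lay inside the region called in the resistant libraries. The AP-1 matches, at -242 to -236 and -161 to -155, lay outside every merged region. Of 34961 promoter windows of the same length, 7.68% held the AP-1 pattern, 45% the GC box, 20.6% the E-box and 3.52% the grainyhead pattern. KRT8 held none of these letters in its window. A match is a description of letters only.

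A peak overlapped the CLDN4 promoter window in 6 of 6 resistant and 0 of 6 parental libraries, and the KRT8 window in 3 of 3 parental untreated, 0 of 3 parental treated, 3 of 3 resistant untreated and 1 of 3 resistant treated libraries. The CLDN4 pattern was shown by 21 of 22132 promoter windows of coding genes (0.0949%), and the opposite pattern by 0. Fisher's exact test of the merged region gave p = 0.00216 (two-sided, 6 against 6 libraries), with an adjusted p of 0.0807 over the 9507 regions called in 5 to 7 libraries. Over the 494 promoter windows called in 5 to 7 libraries the adjusted p of Fisher's exact test was 0.0509. Both missed the threshold of 0.05, as did all regions and all windows tested. Fisher's exact test of 6 against 6 libraries allows no p below 0.00216, so passing depends on how many regions or windows share that p. Among the 9507 regions, 2.2% had the full CLDN4 pattern and 0.484% its opposite, and the unadjusted Fisher's exact p lay under 0.05 for 8.71% more often called in resistant and 2.7% more often called in parental libraries.

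The peaks at the CLDN4 start were modest. In resistant untreated libraries they spanned 296, 243 and 153 bp with folds over local background of 2.41, 2.86 and 2.59. In resistant treated libraries they spanned 275, 128 and 270 bp with folds of 2.54, 3.16 and 3.11. Ranked by -log10 q within its own list, with 0% the strongest, the peak stood between 47% and 70.2%, so it was a middle-ranking peak in each. With peaks limited to a -log10 q of at least 3, it was called in 5 resistant and 0 parental libraries.

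The rest of the CLDN4 window showed which part was common to both lines. A region at chr7:73827606-73828620, between genes and 2376 bp before the start, was called in 12 of 12 libraries with folds of 4.58 to 5.45, at ranks of 8.87% to 17.8%. Its covered length was 786 to 988 bp in parental and 889 to 914 bp in resistant libraries, which overlapped. Inside the gene, chr7:73831965-73832483 was called in 4 of 6 resistant libraries (2 untreated and 2 treated) and in 0 of 6 parental libraries, with folds of only 2.07 to 2.3. Beyond the end of the gene, chr7:73833135-73833944, within 1 kb of the ends of both CLDN4 and METTL27, was called in 12 of 12 libraries and was generally longer in resistant libraries, at 224 to 803 bp, than in parental libraries, at 166 to 406 bp.

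**Figure D1:**
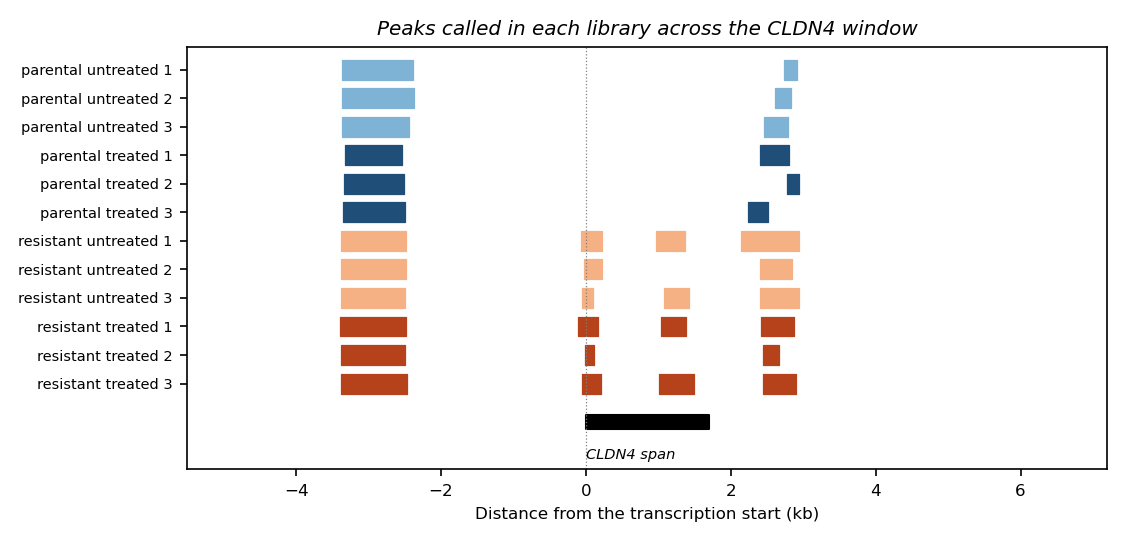
Peaks called in each of the 12 libraries across the CLDN4 window, with distance from the transcription start in kb on the x axis, 1 row per library, bars spanning called peaks and the black bar the gene span. The upstream region is present in all 12 rows, the peak at the start in the 6 resistant rows only, and the peak inside the gene in 4 resistant rows.

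Over the whole CLDN4 window, peaks covered 1162, 1211 and 1249 bp in parental untreated libraries and 1192, 990 and 1131 bp in parental treated libraries. They covered 2402, 1595 and 1923 bp in resistant untreated and 1984, 1241 and 2113 bp in resistant treated libraries. Resistant libraries exceeded parental ones within each treatment, and the lowest resistant treated library overlapped the highest parental untreated one. The means were 1156 bp ± 90.8 (SD, n = 6) in parental and 1876 bp ± 407 (SD, n = 6) in resistant cells, a ratio of 1.62. This difference of 721 bp passed the test: a stratified two-sided exact permutation test gave p = 0.005, the smallest p it allows, and an adjusted p of 0.0451 over the 18146 coding genes with any covered base. Per Mb of covered genome the difference was 8.29 bp with an adjusted p of 0.522 by exact permutation, so the call was lost.

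CDH1, by contrast, lacked a peak within 1 kb of either end throughout the 12 libraries. CDH1 is read from its lower-coordinate end, so its start lay outside every called peak. The gene had 17 merged regions, of which 13 were called in 1 library only and 1 in all 12. The constant region, chr16:68800232-68800719, lay inside the gene 62940 bp from its lower-coordinate end. Its folds were 4.19 to 5.96, and its rank in the lists was 27.8% to 58%. It covered 296, 350 and 151 bp in parental untreated and 115, 106 and 83 bp in parental treated libraries, which did not overlap. It covered 475, 124 and 323 bp in resistant untreated and 394, 279 and 472 bp in resistant treated libraries, which overlapped. A region at the far edge of the window, chr16:68731802-68732459, lay inside the neighbouring cadherin gene CDH3 and reached beyond the window. As a whole it was called in 3 parental untreated, 0 parental treated, 2 resistant untreated and 2 resistant treated libraries. Its peaks reached into the window only in parental untreated replicates 1 and 2, resistant untreated replicate 1 and resistant treated replicate 1.

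Summed over its window, CDH1 had 822, 1026 and 379 covered bp in parental untreated and 198, 258 and 83 bp in parental treated libraries. It had 835, 231 and 436 bp in resistant untreated and 1029, 796 and 651 bp in resistant treated libraries. All 3 treated parental libraries were thus below all untreated parental ones, while treated and untreated resistant libraries overlapped. The means by phenotype were 461 bp ± 377 (SD, n = 6) in parental and 663 bp ± 290 (SD, n = 6) in resistant cells, a difference that did not pass the test (exact permutation p = 0.34, adjusted p = 0.453).

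EPCAM had little peak coverage, in the same few places. The constant region, chr2:47388220-47388536, lay 1200 bp beyond the end of the gene in no annotated gene and was called in 12 of 12 libraries, with folds of 3.28 to 6.04. Within the gene, chr2:47373910-47374059, 4599 bp from the start side, was called in 2 parental untreated, 0 parental treated, 0 resistant untreated and 3 resistant treated libraries (Fisher's exact p = 1 for phenotype and for treatment). A peak within 1 kb of the start side of EPCAM was called in 1 library, parental untreated replicate 2. The window held 359, 354 and 124 covered bp in parental untreated, 103, 296 and 219 bp in parental treated, 268, 231 and 283 bp in resistant untreated and 351, 367 and 394 bp in resistant treated libraries. Treated resistant libraries were all above untreated ones, and the parental groups overlapped. The means of 242 bp ± 112 (SD, n = 6) in parental and 316 bp ± 64.1 (SD, n = 6) in resistant cells did not differ by the exact permutation test (p = 0.22, adjusted p = 0.321).

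**Figure D2:**
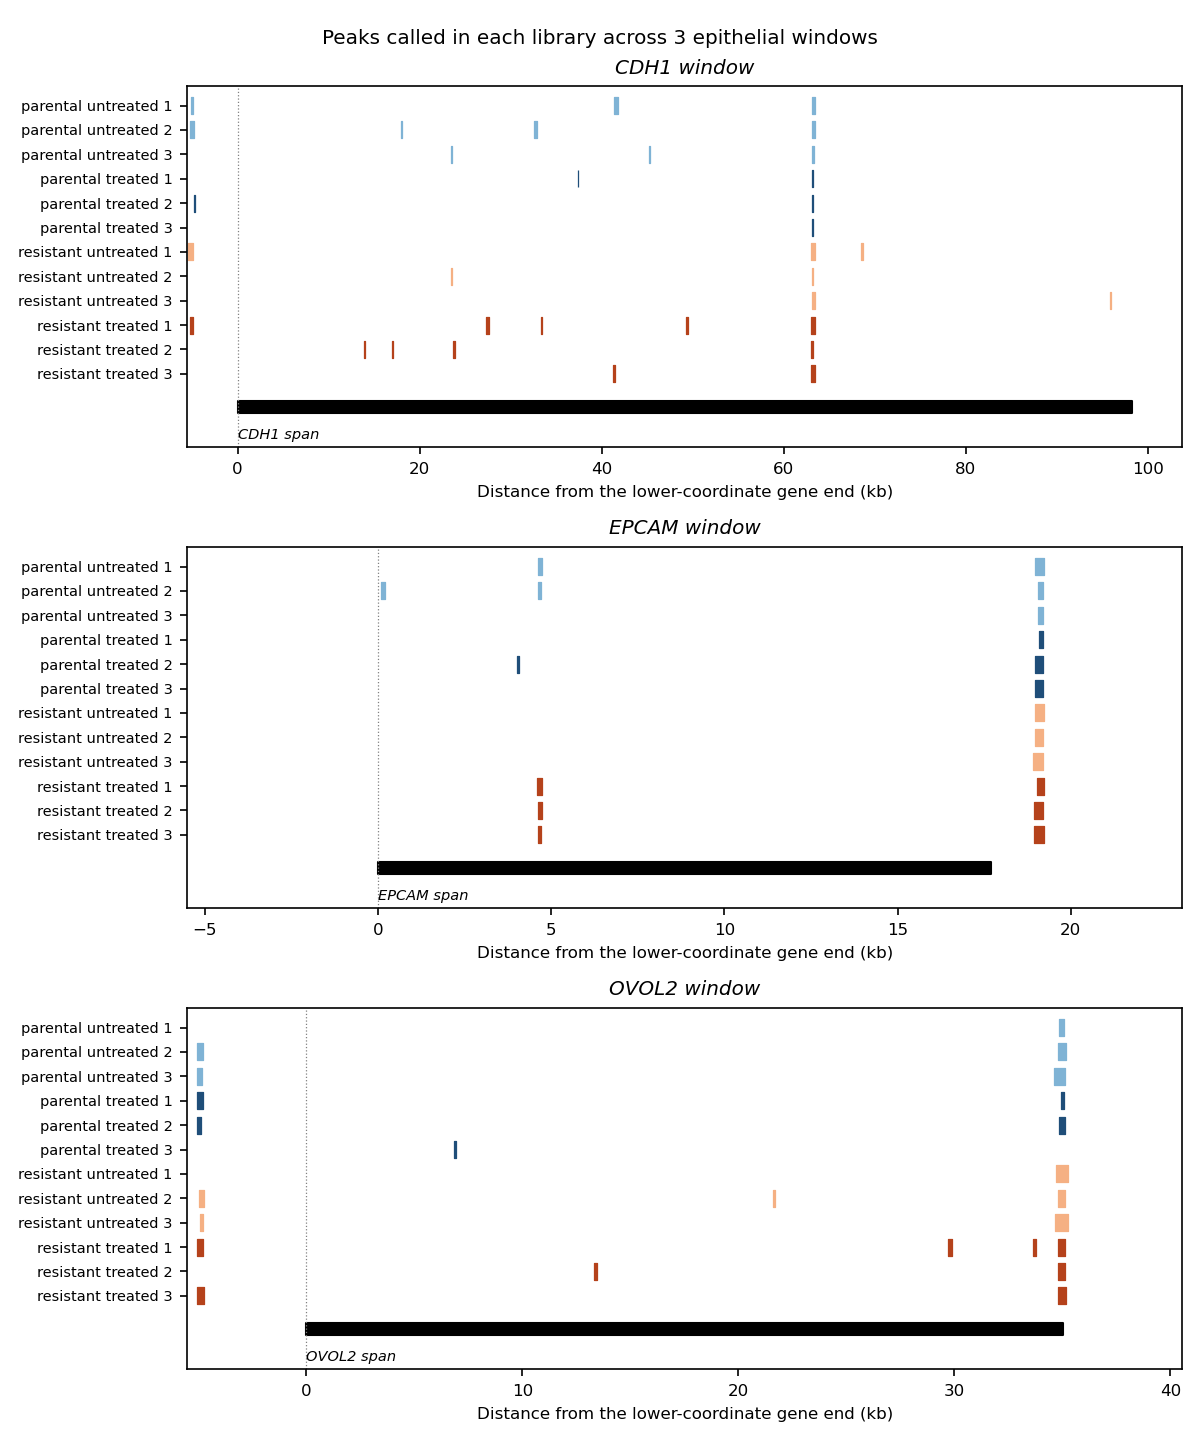
Peaks called in each library across the CDH1, EPCAM and OVOL2 windows, with distance from the lower-coordinate gene end in kb on the x axis and black bars marking gene spans. CDH1 has 1 region inside the gene in all 12 rows and none near its ends, EPCAM has its constant region beyond the gene, and OVOL2 a recurring peak where its higher-coordinate end lies, in 11 rows.

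KRT8 and KRT18 lie side by side on chromosome 12, and the RefSeq span of KRT8 runs into that of KRT18, so 5 merged regions fell in both windows and their covered bases are not independent. Both genes had peaks at both ends in 12 of 12 libraries, but those at the higher-coordinate end of KRT8 were the same peaks as those at the KRT18 start. KRT8 had 14 merged regions, 4 of them called in every library. The strongest, chr12:52904510-52905475 inside the gene, had folds of 4.98 to 8.96 and ranks of 8.5% to 28.1%. Next to it, chr12:52903322-52904180 had peaks of 170 to 859 bp in the 6 resistant libraries and a peak of 122 bp in 1 of 6 parental libraries (Fisher's exact p = 0.0152, adjusted p = 0.133). The RefSeq start of the printed promoter window, at 52926469, lies inside the gene span (52897191 to 52949860) and away from both ends. Other starts of KRT8 were not examined. A wide region, chr12:52924877-52927813, included this start and was called in every library as 1 to 4 separate peaks. It covered 1164, 1491 and 1453 bp in parental untreated, 680, 481 and 339 bp in parental treated, 2900, 1855 and 2587 bp in resistant untreated and 2131, 1256 and 1797 bp in resistant treated libraries. Treated parental libraries were below all others, the 2 resistant groups overlapped, and in 2 untreated resistant libraries the region was a single peak of 2900 or 2587 bp.

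Over the KRT8 window, covered bases were 5254, 5280 and 4102 in parental untreated, 3333, 3258 and 3052 in parental treated, 8153, 5859 and 6774 in resistant untreated and 5996, 4556 and 5987 in resistant treated libraries. Within each treatment the resistant libraries all exceeded the parental ones. KRT8 rose from 4046 bp ± 1010 (SD, n = 6) in parental to 6221 bp ± 1187 (SD, n = 6) in resistant cells, a ratio of 1.54 (exact permutation p = 0.005, adjusted p = 0.0451). Per covered Mb the difference was 25.5 bp with an adjusted p of 0.3 by exact permutation, so this call was lost too. The treated mean was below the untreated one, at 4364 bp ± 1367 against 5904 bp ± 1405 (SD, n = 6 each), without passing the test (exact permutation p = 0.015, adjusted p = 0.297).

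KRT18 showed 6 regions, 5 of which it shared with KRT8. Its start region, chr12:52948566-52949358, was called in 12 of 12 libraries with folds of 3.8 to 4.86 and covered 523 to 752 bp in parental untreated, 427 to 548 bp in parental treated, 544 to 593 bp in resistant untreated and 576 to 655 bp in resistant treated libraries. The window as a whole held 1414, 1432 and 1127 bp in parental untreated, 787, 988 and 817 bp in parental treated, 1929, 1399 and 2161 bp in resistant untreated and 1130, 1213 and 1423 bp in resistant treated libraries. Parental treated libraries were all below parental untreated ones. The resistant mean of 1542 bp ± 411 exceeded the parental mean of 1094 bp ± 283 (SD, n = 6 each) without passing the test (exact permutation p = 0.015, adjusted p = 0.065).

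KRT19, the classical duct keratin, had 4 merged regions and only 1 of them touched the gene span. KRT19 is read from its higher-coordinate end, and the region there, chr17:41527930-41528509, was called in 3 parental untreated, 1 parental treated, 3 resistant untreated and 2 resistant treated libraries, with folds of 2.39 to 3.08. The other 3 regions were called in all 12 libraries. The strongest of them, chr17:41529278-41531168, lay 970 bp outside the start side of the gene, with folds of 4.14 to 6.49 and ranks of 5.39% to 33.2%. On the other side, chr17:41521555-41522915 lay 702 bp from the end of the gene, and chr17:41518890-41519958 overlapped the neighbouring keratin gene KRT15. The region 702 bp from the gene covered 918, 1206 and 566 bp in parental untreated and 213, 432 and 334 bp in parental treated libraries, which did not overlap, and 860 to 1355 bp in the 6 resistant libraries.

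The KRT19 window held 3297, 3899 and 2142 covered bp in parental untreated, 1179, 1496 and 1676 bp in parental treated, 3611, 3300 and 3607 bp in resistant untreated and 3824, 3024 and 4172 bp in resistant treated libraries. The treated parental libraries were below all 9 others. The phenotype means of 2282 bp ± 1083 in parental and 3590 bp ± 400 in resistant cells (SD, n = 6 each) did not pass the test (exact permutation p = 0.03, adjusted p = 0.0886). The gene span alone, without the 5 kb on either side, gave a difference of -50.8 bp, so the covered length that was higher in resistant cells lay outside the gene.

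KRT7 had 5 merged regions and 1 that recurred, chr12:52243299-52244732, inside the gene near an end of the antisense gene KRT7-AS. It was called in 3 parental untreated, 2 parental treated, 3 resistant untreated and 3 resistant treated libraries. Its folds were 3.18 to 3.94 in parental and 4.43 to 5.78 in resistant libraries, without overlap, and how many other regions separate in this way was not counted. Its ranks within the lists did overlap, at 49.7% to 75.4% in parental and 37.5% to 57.9% in resistant libraries. No peak lay within 1 kb of its start side. The window held 384, 957 and 223 covered bp in parental untreated, 0, 457 and 508 bp in parental treated, 1031, 299 and 1036 bp in resistant untreated and 1394, 741 and 627 bp in resistant treated libraries. The mean was 422 bp ± 321 in parental and 855 bp ± 382 in resistant cells (SD, n = 6 each), the largest ratio of the 9 covered genes at 2.03, and the groups overlapped (exact permutation p = 0.055, adjusted p = 0.125).

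**Figure D3:**
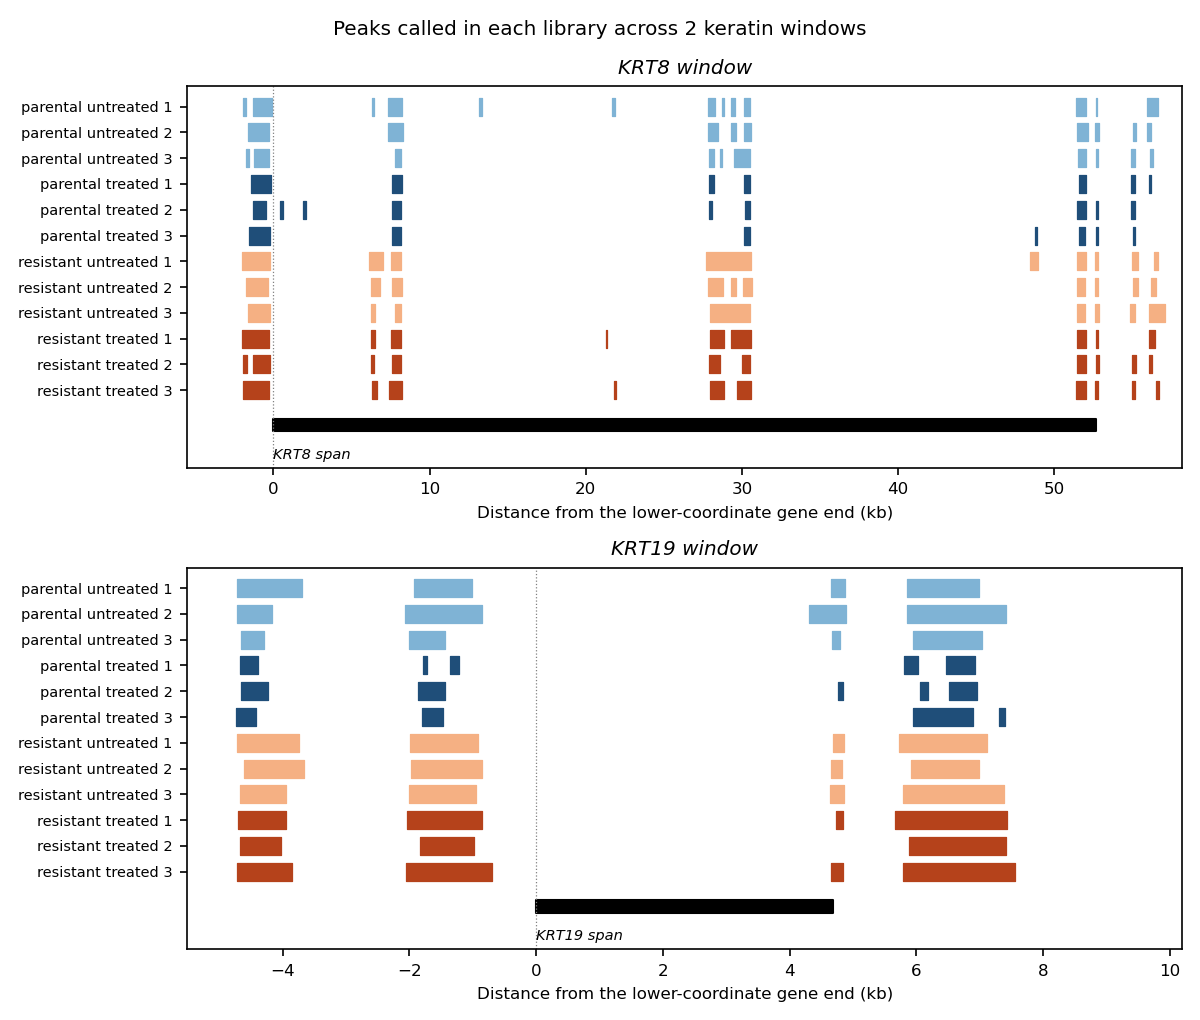
Peaks called in each library across the KRT8 and KRT19 windows, with distance from the lower-coordinate gene end in kb on the x axis, 1 row per library and black bars marking gene spans. In KRT8 the peak near 6 kb appears in 6 resistant rows and 1 parental row, and in KRT19 the wide peaks lie outside the gene span, the 2 nearest to it being shortest in the 3 treated parental rows.

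Of the regulators, ESRP1 had no peak in its window in any library and could not be tested. GRHL2 had 7 merged regions, each called in at most 2 libraries and none within 1 kb of its ends. Its covered bases were 359, 0 and 92 in parental untreated, 0, 0 and 697 in parental treated, 396, 0 and 0 in resistant untreated and 118, 0 and 115 in resistant treated libraries, so 6 of 12 libraries had none. The phenotype difference of -86.5 bp had an exact permutation p of 0.71 (adjusted p = 0.804) and became 29.7 bp without parental treated replicate 3. No sequence is printed for either gene.

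OVOL2 differed from the other regulators in having a peak at its start. OVOL2 is read from its higher-coordinate end, where chr20:18058768-18059410 was called in 3 parental untreated, 2 parental treated, 3 resistant untreated and 3 resistant treated libraries, with folds of 3.39 to 5.86. A region between genes, chr20:18019103-18019395, was called in 2 libraries of each group. The window held 262, 590 and 688 covered bp in parental untreated, 393, 407 and 91 bp in parental treated, 564, 634 and 724 bp in resistant untreated and 856, 458 and 621 bp in resistant treated libraries. The groups overlapped within untreated cells and did not overlap within treated cells. The means of 405 bp ± 216 in parental and 643 bp ± 136 in resistant cells (SD, n = 6 each) did not pass the test (exact permutation p = 0.05, adjusted p = 0.118).

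**Figure D4:**
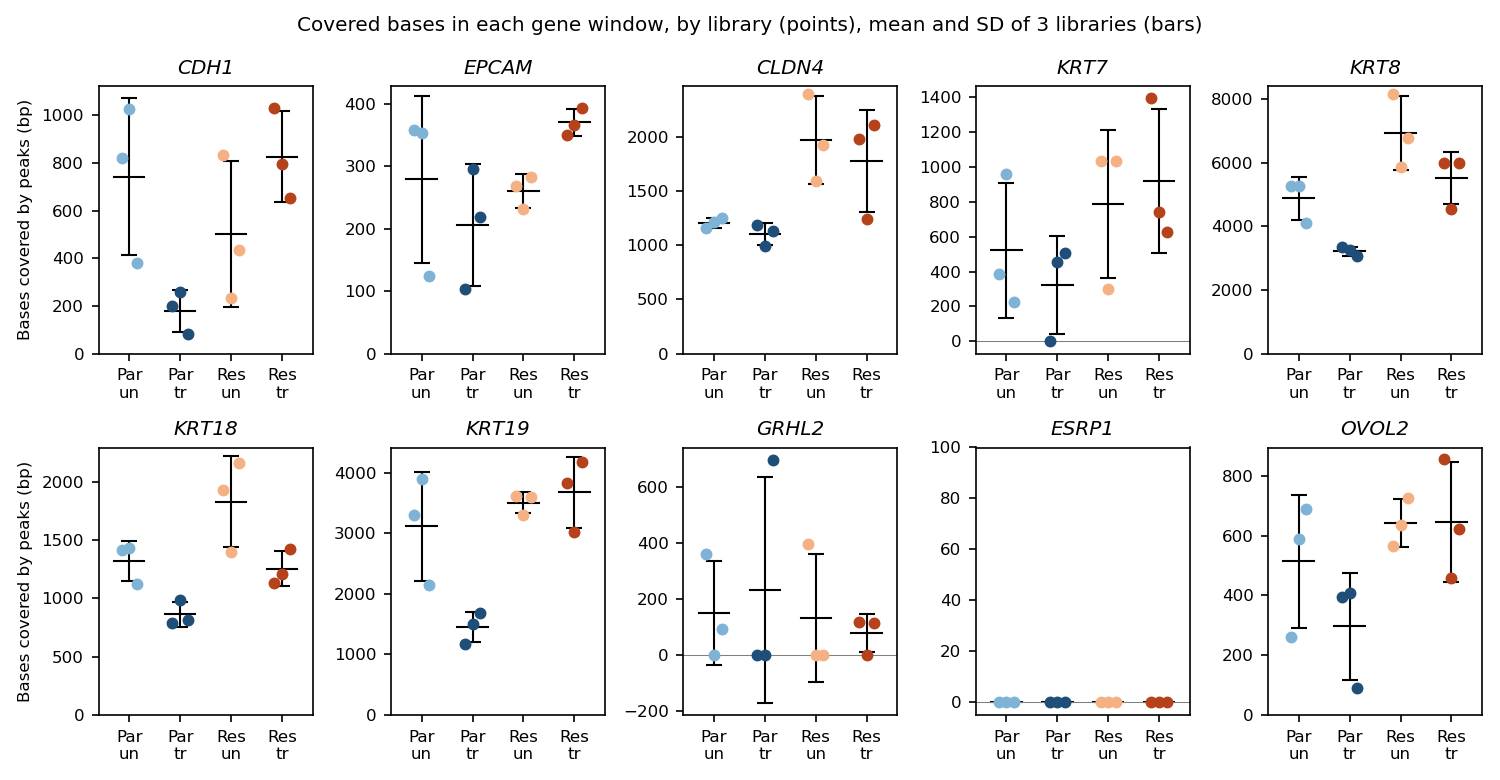
Covered bases in the window of each gene, in bp on a separate y axis per gene, for parental untreated (Par un), parental treated (Par tr), resistant untreated (Res un) and resistant treated (Res tr) libraries. Points are the 3 libraries of a group and bars their mean and SD. In CDH1, KRT8, KRT18 and KRT19 the treated parental points lie below the untreated parental ones, and ESRP1 is at 0 in 12 libraries.

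The phenotype calls were then set against all coding genes. KRT8 and CLDN4, 2 of the 9 genes that could be tested, passed the test, both higher in resistant cells, where 11.1% of the 18146 coding genes tested were called higher and 0.0276% lower. Both calls were kept without resistant untreated replicate 2 or resistant treated replicate 2 and were lost without any of the other 10 libraries, where the smallest adjusted p over all genes was 0.0535 to 0.0918 by exact permutation. An adjusted p under 0.05 could be reached only because at least 10% of the genes stood at the smallest exact p. At an unadjusted exact p under 0.05, 4 of the 9 genes (KRT8, CLDN4, KRT18 and KRT19) were higher and 0 lower, against 40.1% and 0.237% of coding genes. Of the 9 genes, 8 had a higher resistant mean and GRHL2 a lower one, with a median difference of 433 bp against 280 bp over all coding genes tested. Summed covered bases were 1.54 times as high in resistant as in parental cells over the 10 genes and 1.37 times as high over all coding genes. Both sums count bases in overlapping windows more than once, those shared by KRT8 and KRT18 among them. KRT8 was the largest part of the sum over the 10 genes, with means of 4046 bp in parental and 6221 bp in resistant cells. None of the 9 separated all 6 resistant from all 6 parental libraries, which 4.55% of coding genes did in the higher direction and 0.011% in the lower. After division by the Mb covered in each library, 0 of 18146 genes passed the exact permutation test. At an unadjusted p under 0.05, 9.48% were then higher in resistant cells and 10.5% lower.

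The log2 ratio of resistant to parental mean covered bases placed the genes among the 16974 coding genes with a peak in both phenotypes, whose median was 0.42. KRT7 stood highest at 1.02, above 88.4% of genes. CLDN4 at 0.70, OVOL2 at 0.67, KRT19 at 0.65 and KRT8 at 0.62 stood between the 69.8 and 75.1 percentiles. CDH1 at 0.52, KRT18 at 0.50 and EPCAM at 0.38 stood between the 45 and 61.3 percentiles, and GRHL2 at -0.87 stood at the 2.07 percentile on sparse coverage. Per covered Mb the median of all genes was -0.01, and the same 8 genes lay between 0.03 for EPCAM and 0.67 for KRT7.

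**Figure D5:**
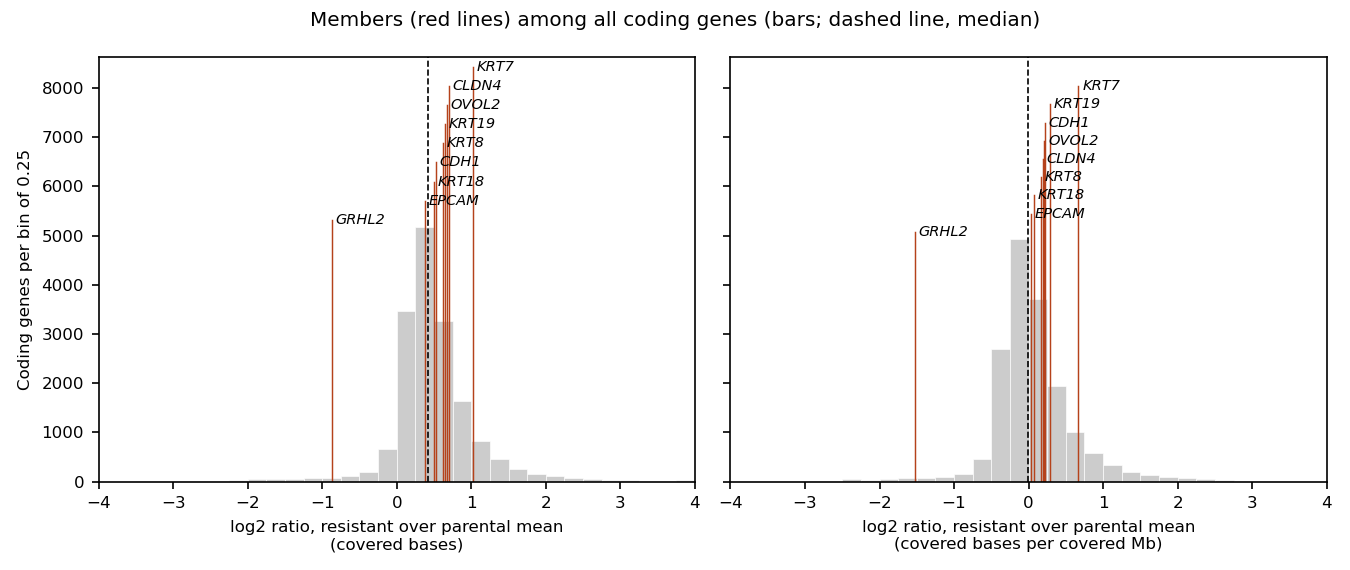
Number of coding genes by log2 ratio of resistant to parental mean, in bins of 0.25, for covered bases (left) and covered bases per covered Mb (right). Dashed lines mark the medians, 0.42 and -0.01, and red lines the 9 covered genes, 8 of which lie within the main body of the distribution with GRHL2 far below it.

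No coding gene passed the threshold by oxamate treatment. Only 1.71% of the genes stood at the smallest exact p by treatment, where the threshold needs 10%, so no gene could be called. The test averages over parental and resistant cells, and an absence of change cannot be read from it. The exact permutation test over all 12 libraries called 0 of 18146 genes, or 0% in each direction, while 14% had lower and 0.0606% higher coverage in treated cells at an unadjusted p under 0.05. KRT18, with a difference of -517 bp (exact permutation p = 0.01, adjusted p = 0.296), and KRT8 were the 2 of the 9 genes in the lower group. The interaction, the treatment difference in resistant cells minus that in parental cells, also called 0 of 18146 genes by exact permutation, or 0%. Unadjusted p-values under 0.05 were found for 4.02% of genes in the higher and 0.204% in the lower direction. Fewer than the needed 10% of genes thus stood at the smallest p, so no interaction call was possible either. The interaction test permuted treatment labels within phenotype. Its p refers to no treatment effect in either phenotype, rather than to equal effects in both. CDH1 had the smallest interaction p of the 9, with 887 bp (exact permutation p = 0.025, adjusted p = 0.888), and KRT19 followed with 1830 bp (exact permutation p = 0.05, adjusted p = 0.888).

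Comparisons of 3 against 3 libraries cannot reach an exact p below 0.1, so they are given as counts of groups that did not overlap. These comparisons share groups and are not independent. In parental cells, 4 of the 9 genes (CDH1, KRT8, KRT18 and KRT19) were lower in all treated than in all untreated libraries, against 33.7% of coding genes. In resistant cells, 1 gene, EPCAM, was higher in all treated libraries, against 1.07%, and 0 were lower, against 4.67%. In untreated cells, 2 genes, KRT8 and CLDN4, were higher in all resistant than in all parental libraries, against 17.1%, and 0 were lower, against 0.777%. In treated cells, 8 genes, all but GRHL2, were, against 47.1%, and 0 were lower, against 0.694%. Covered Mb moved the same way, being lowest in treated parental libraries at 17.2 ± 2.97 (SD, n = 3), compared with 23.7 ± 2.64 without oxamate, and being 28.9 ± 4.28 in resistant libraries without and 26.6 ± 4.77 with oxamate (SD, n = 3 each). Per covered Mb, 2 rather than 4 of the genes, CDH1 and KRT19, were lower in all treated than in all untreated parental libraries, against 9.26% of coding genes. The same 2 genes, rather than 8, were higher in all treated resistant than in all treated parental libraries on that scale, against 13.9%.

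Peaks at gene ends were counted next, since open promoters lie at the start end. A peak within 1 kb of either end was called in 12 of 12 libraries for 2 of the 10 genes, KRT8 and KRT18, against 55% of coding genes. KRT8 and KRT18 share the peaks at the KRT18 start, so these 2 are not independent. An end peak was called in 0 of 12 libraries for 3 of the 10, CDH1, GRHL2 and ESRP1, against 25.6% of coding genes. The remaining 5 had an end peak in some libraries. Among the 63 distinct merged regions of the 10 windows, 11 (17.5%) were called in every library and 33 (52.4%) in a single library, against 13.6% and 59.5% of all 178040 regions. Only 4 of the 63 were called in 5 to 7 libraries and could enter Fisher's exact test.

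Other genes of the epithelial programme were described through lists. Of 24 further junction genes, all tested, 1 was higher in resistant cells. Of 17 tested epithelial surface and protease genes 5 were higher, among them LSR, a tricellular junction receptor (1406 bp in parental and 2757 bp in resistant cells), SCNN1A, a sodium channel subunit (3617 and 4657 bp), and ITGB4, a hemidesmosome integrin (2312 and 3225 bp). Of 8 tested keratin genes other than the 4 described, 1 was higher, KRT14. Of 10 further epithelial regulators, 3 were higher, among them the ETS factors EHF (3489 and 6331 bp) and ELF3 (901 and 2628 bp). Each of these named genes had an exact permutation p of 0.005 and an adjusted p of 0.0451, and each count is to be read against the 11.1% of coding genes called higher. Per covered Mb none of them passed the test, and the difference of SCNN1A turned to -7.81 bp (exact permutation, adjusted p = 0.814).

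Repressors of epithelial genes and mesenchymal markers were mixed in their end peaks. Of 8 repressors, 3 had an end peak in 12 of 12 libraries and 4 in none, and of 8 mesenchymal markers 4 had an end peak in 12 of 12 libraries and 2 in none, against 55% and 25.6% of coding genes. The 3 repressors were ZEB1, SNAI1 and SNAI2, and those without were ZEB2, TWIST1, TCF4 and PRRX1. The mesenchymal filament gene VIM had peaks at both ends in 12 of 12 libraries, whereas the neural cadherin gene CDH2 and SPARC had no end peak. In the phenotype test 0 of 8 repressors and 0 of 8 mesenchymal markers passed. The smallest p among repressors was for SNAI2 (635 bp in parental and 1005 bp in resistant cells, exact permutation p = 0.01, adjusted p = 0.0564), and among mesenchymal markers for CD44 (3848 and 6832 bp, exact permutation p = 0.015, adjusted p = 0.065). Of 10 tested markers of other cell types, 1 passed, the endothelial cadherin gene CDH5 (1580 and 2200 bp, exact permutation p = 0.005, adjusted p = 0.0451), which had no peak within 1 kb of its ends in any library. Among the defining markers of immune, liver and pancreatic islet cells, PTPRC, CD3E, ALB and INS lacked an end peak in all 12 libraries. The summed covered bases of this list were 8827 to 11268 in parental untreated, 6471 to 8361 in parental treated, 10986 to 13183 in resistant untreated and 8446 to 14014 in resistant treated libraries, and their part in the results was not tested. Treatment called 0 genes in each of these lists by the exact permutation test, as it did over all coding genes, where too few stood at the smallest p for any call.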

How the data were processed

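ATAC-seq peak lists of 12 MIAPaCa2 libraries were used, grouped by sample title. The authors aligned reads with Bowtie2 2.1.0 to hg38, filtered out duplicate, mitochondrial and multiply mapping reads, and ran MACS2 in paired-end mode on each library alone to obtain broad peaks. The MACS2 version and cutoff are not given in the sources used here. Each deposited peak carries a score, a fold over local background, and the −log10 of its p-value and q-value, all relative to its own list. The lists hold no counts, and absolute depth is unknown.

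Peaks on chromosomes 1 to 22 and X were kept (0.892% of 677901 left out). Covered bases in gene windows (RefSeq span extended by 5 kb; the table gives no strand) were compared over 18146 coding genes by a two-sided exact permutation test, permuting phenotype within treatment or treatment within phenotype (400 assignments, smallest p 0.005), with Benjamini-Hochberg adjustment. A threshold of 0.05 then needs 10% of genes at the smallest p. Overlapping peaks (at least 1 bp) were merged into 178040 regions, and presence was tested by Fisher's exact test. Promoter sequences came from RefSeq, and 2 of the 10 genes matched. All 10 genes are named. Of each other list, at most 3 genes a comparison are named, by smallest p, and some that this rule selects are not reported here. The genes and lists were chosen with earlier results of these data known. The permutation test was tested on simulated data. Python 3.11.15, numpy 2.4.6 and scipy 1.17.1 were used. Alternatives were stricter or equally many peaks, scaling by covered Mb, other windows, a filter, a block for replicate number and omission of single libraries. A minimum peak width of 124 bp and the test on promoter windows were added after the data were seen.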

Additional observations from a re-analysis of the deposited data

How the results depend on the processing

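The count of coding genes called by phenotype depended strongly on the setting, because the exact test has few possible p-values and the call needs many genes at the smallest. It was 2013 as reported, 5359 when peaks needed a -log10 q of 3 or more, 3910 with the same number of top-ranked peaks in each list, 3220 among genes covered in at least 6 libraries, and 0 per covered Mb and 0 without the extension of the gene span. Leaving out 1 library gave 0 to 4062. It gave 0 in 10 of 12 cases, at smallest adjusted p-values of 0.0535 to 0.0918, and was above 0 only without resistant untreated replicate 2 (4062) or resistant treated replicate 2. The calls of KRT8 (adjusted p 0.0352 to 0.3 over its alternatives by exact permutation) and CLDN4 (0.036 to 0.522) were lost in 13 and 15 of 20 alternatives, and both differences stayed above 0 in all 20. Calls were gained for KRT7, KRT18 and KRT19 with -log10 q of at least 3. Replicate numbers did not pair the libraries: deviations of same-numbered libraries correlated at -0.348 to 0.208 for phenotype and -0.167 to 0.538 for treatment, and 1 of 6 and 3 of 6 correlated best with their own number. With a replicate block the count by phenotype was 0, at a smallest p of 0.0312 and an adjusted p of 0.147. The count of regions called by phenotype was 0 as reported, 0 over promoter windows and 307 with -log10 q of at least 3. The CLDN4 start region was not called in any alternative, with a difference of 5 to 6 libraries on leaving out 1.

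Directions turned only for differences that did not pass the test as reported, although that of KRT19 by phenotype passed with -log10 q of at least 3. By treatment, EPCAM (18.5 bp) was -39.3 bp and KRT7 (-33.8 bp) 97.8 bp with -log10 q of at least 3, KRT7 was 1.71 and CLDN4 (-148 bp) 6.7 bp per covered Mb, and CLDN4 was 4.17 bp without the extension. By phenotype, EPCAM (73.2 bp) was -2.33 bp and KRT19 (1308 bp) -50.8 bp without the extension. Leaving out 1 library gave, by treatment, -156 to 75.1 bp for KRT7, -102 to 79.8 bp for GRHL2 and -20.3 to 44.2 bp for EPCAM, and by phenotype -152 to 29.7 bp for GRHL2. The cause was not tested.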
